A study of Mus musculus with 6 samples.

Results

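The EGF family ligands Areg, Ereg, Hbegf and Tgfa, the neuregulins Nrg1 and Nrg3, and the receptors Egfr, Erbb2, Erbb3 and Erbb4 were followed through the cell types of the mouse retina in oxygen-induced retinopathy (OIR). They are 10 of the 31053 genes counted, found by their symbols, and they were chosen on the contrast of OIR with control in these same samples, above all on Areg in Müller glia and Nrg1 in rod bipolar cells. Their own differences between the groups are therefore given as a description, with no test. The OIR group breathed 75% oxygen between P7 and P12 and room air after that until P17, per the study's methods, and the control group, of the same age, was not given that oxygen exposure. Each group had 3 samples, and each sample pooled the retinas of 2 mice. The labels name neither strain nor transgene, and give the tissue as endothelial cells of the retina, whereas rod-like cells made up 64.4% and endothelial-like cells 0.503% of the 38569 cells kept.

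Single cells were captured with a 3' droplet assay that counts unique molecular identifiers (UMIs). The 6 samples held between 15788524 and 42606878 UMIs, and both replicate 1 samples were the deepest of their group. Clusters were named by marker genes, with "-like" added because no other measurement gave the cell types. The 1682 cells of 4 clusters stayed unnamed. Levels are in CPM, the UMIs of a gene in every 1000000 UMIs of the summed cells of one type in one sample, which compare a gene between types but not one gene with another. Control replicates 2 and 3 held Xist RNA at 1736 and 1992 CPM, whereas the OIR samples and control replicate 1 held Y-linked RNA at 206 to 259 CPM, so that group and sex are partly confounded. Kept barcodes shared between any 2 samples were at most 0.261% of the smaller sample.

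ErbB receptors are tyrosine kinases that pair on binding a ligand and signal through Ras and MAP kinases and through PI3 kinase. Egfr binds Areg, Ereg, Hbegf, Tgfa, Btc, Epgn and Egf itself, which are made as membrane proteins and cut loose by proteases of the ADAM family. Erbb3 and Erbb4 bind neuregulins, and Erbb2 has no known ligand and serves as partner. In the retina, Egfr is known as a receptor of Müller glia, the radial support cells that react to injury, and neuregulin 1 is known from neurons and from nerve and muscle development.

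Areg lies on chromosome 5 of build GRCm38, chr5:91139599-91148432, plus strand, with 0 other annotated genes over it. It stands in a stretch of 375.5 kb that holds 4 protein-coding genes, all ligands of Egfr, in the order Epgn, Ereg, Areg and Btc. Nrg1 spans 1069.5 kb at chr8:31814551-32884029 on the minus strand, Egfr lies at chr11:16752203-16918158 on the plus strand and Erbb4 at chr1:68032186-69108059 on the minus strand. Egfr is overlapped by Egfros on the other strand, Nrg1 by Gm26578 and Gm22140, and Nrg3 by Nrg3os, and the study's methods name Cell Ranger with default settings, which count reads in the sense direction of a gene.

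The 250 bases before the start of Areg and of Egfr are printed because the ligand that differed most in Müller-like cells and the receptor found in the same cells are the pair the results turn on. They come from RefSeq on GRCm38.p6, where 6 of the 10 genes had an entry (not Ereg, Hbegf, Erbb3 or Nrg1). The 3 motifs below were searched on both strands and are in capitals: TGACGTCA, the cyclic AMP response element, ACGTG, the core of the hypoxia response element, and TATAAA, the TATA box. The matches found do not overlap.
Areg, chr5:91139349-91139598, plus strand: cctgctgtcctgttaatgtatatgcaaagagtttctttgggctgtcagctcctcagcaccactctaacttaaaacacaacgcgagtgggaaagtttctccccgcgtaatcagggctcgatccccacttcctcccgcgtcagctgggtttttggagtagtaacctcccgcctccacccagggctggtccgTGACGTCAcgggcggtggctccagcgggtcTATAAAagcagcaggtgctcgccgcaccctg
Egfr, chr11:16751953-16752202, plus strand: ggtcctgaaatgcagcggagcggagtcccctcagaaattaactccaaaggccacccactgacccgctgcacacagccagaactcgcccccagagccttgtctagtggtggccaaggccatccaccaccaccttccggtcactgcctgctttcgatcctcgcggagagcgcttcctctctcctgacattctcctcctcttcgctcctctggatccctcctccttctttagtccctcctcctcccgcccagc
The Areg window held TGACGTCA, beginning 61 bases before the start, and TATAAA, beginning 31 bases before it. TGACGTCA stood in 1.55% and TATAAA in 12.4% of 32851 mouse windows of the same length. ACGTG, found in 16.6% of windows, was in neither sequence, and the Egfr window held 0 of the 3 motifs.

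**Figure D1:**
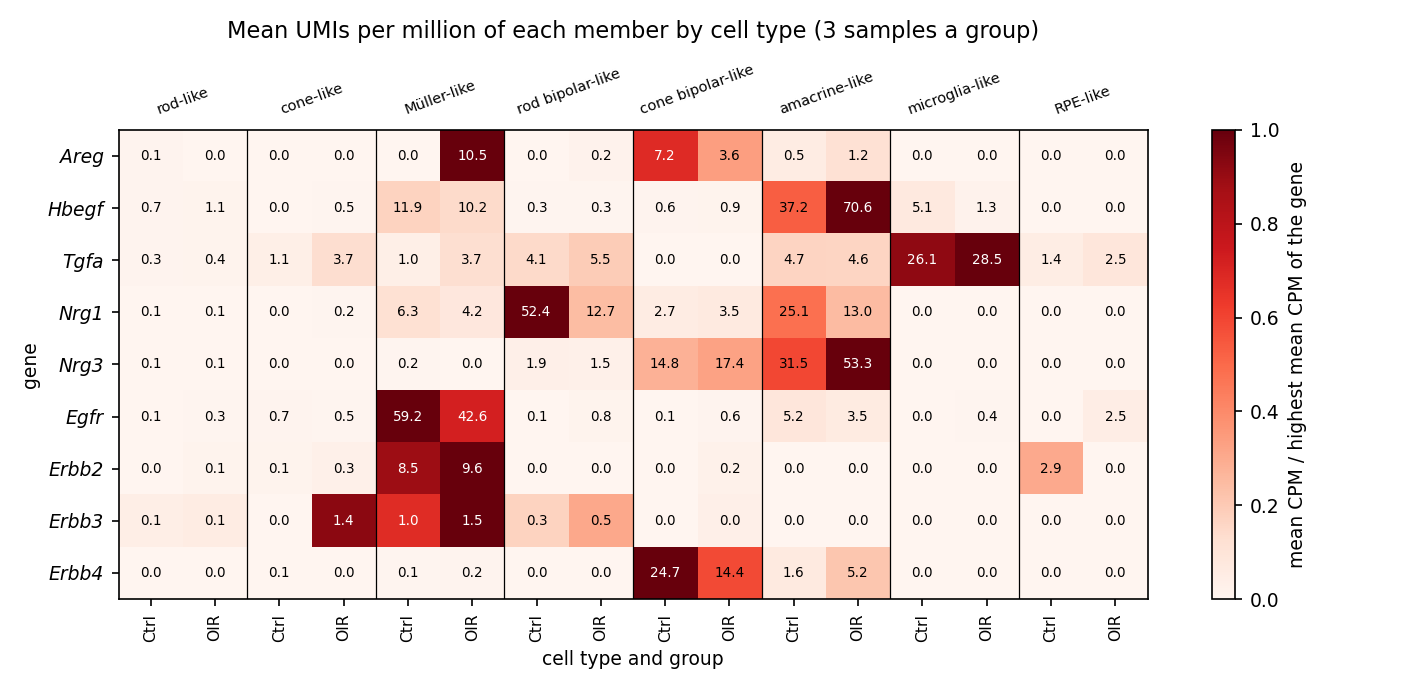
Mean CPM of 9 members (rows) in 8 cell types, control and OIR side by side (columns, n = 3 samples each), with the colour scaled to the highest value of each gene and values rounded to 1 decimal. Ereg, with 1 UMI in all, is left out. Among the 8 types shown, the receptors Egfr and Erbb2 were mainly in Müller-like cells and Erbb4 in cone bipolar-like cells. Areg stood at 0 in control Müller-like cells and at 10.5 in those of the OIR group.

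Areg, the ligand amphiregulin, was present in Müller-like cells of every OIR sample and was not detected in those of any control sample. The 3 OIR samples held 71, 22 and 48 Areg UMIs in 937, 514 and 581 Müller-like cells, or 9.15, 6.88 and 15.6 CPM. The 3 control samples held 0 UMIs in 901, 292 and 260 cells, and the groups did not overlap. The mean was 10.5 ± 4.52 CPM (SD, n = 3) in the OIR group. Against the floor of 3 counts over the whole control group, 0.311 CPM, the pooled level of the OIR group was at least 32.3-fold higher, and at least 13.5-fold without control replicate 1, whose Müller-like cells held the most UMIs of the controls. That sample, the control with Y-linked RNA, also had 0 Areg UMIs. Group and sex are partly confounded, so that a part of sex in the difference cannot be told apart. In the bound without control replicate 1 they are fully confounded, since the remaining controls held Xist RNA.

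Few cells carried Areg. An Areg UMI was found in 59 of 2032 OIR Müller-like cells, a mean of 2.72% ± 0.850 (SD, n = 3) of the cells of a sample, and in 0 of 1453 control cells, which allows a share of up to 0.206% of the pooled control cells with a UMI. That limit covers counting error only and does not bound the share of cells that express the gene. In rod-like cells, which are not known to make Areg, 1 of 12353 OIR and 2 of 12468 control cells had a UMI, at a median of 1401 to 3101.5 UMIs a cell against 2400 to 8553 in Müller-like cells. Thinned to 1000 UMIs a cell, the mean share in OIR Müller-like cells was 0.721% ± 0.172 (SD, n = 3). Many positive cells held little: 18 of 34 in OIR replicate 1, 5 of 10 in replicate 2 and 7 of 15 in replicate 3 had a single UMI. One cell of OIR replicate 3 held 21 of the 48 UMIs of its sample, and without it the level there was 8.79 CPM.

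Müller-like cells came from 2 clusters, in a mix that differed between samples. Cluster 3 gave 665, 242 and 261 OIR and 675, 183 and 180 control cells. Cluster 6 gave 272, 272 and 320 OIR and 226, 109 and 80 control cells. The part of this mix in the differences of Müller-like cells was not tested. Cluster 3, led by Slc1a3, Car14, Dkk3 and Glul, held cells with a median of 9201 UMIs. Cluster 6, led by Ndufa4l2, Dbi, Crym and Vim, held cells with few UMIs, at a median of 1843. Areg was in both, at 9.58, 4.24 and 17.3 CPM in cluster 3 and at 5.75, 18.3 and 9.12 CPM in cluster 6 of the OIR samples, and at 0 in both for every control. The cluster 6 values rest on 5, 11 and 6 UMIs. The floors of 3 counts in its control samples were 5.39, 11.1 and 16.8 CPM, so 0 UMIs there do not show a level below every OIR sample. The share of OIR cells with an Areg UMI that belonged to cluster 3 was 81.4%, against 56.8% of those without one.

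**Figure D2:**
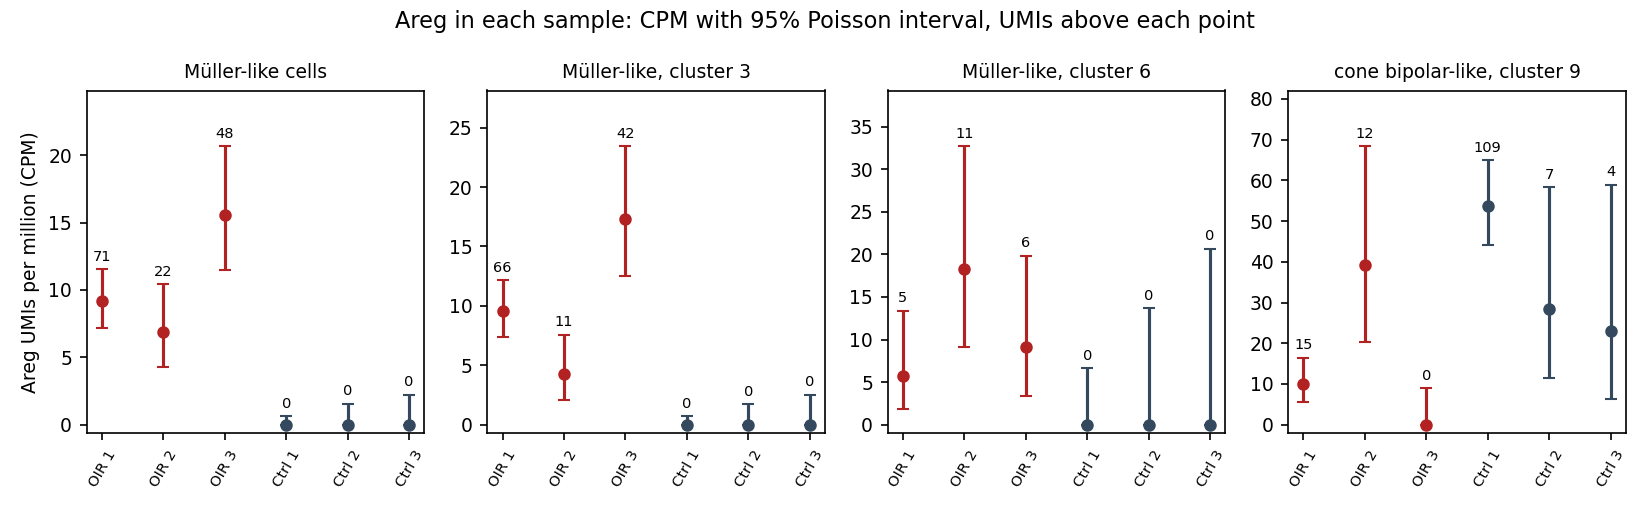
Areg CPM (y axis) in each of the 6 samples (x axis) for Müller-like cells, their clusters 3 and 6, and cone bipolar-like cluster 9. Points are CPM, bars the exact 95% Poisson interval for counting error only, and the numbers are UMIs. All 3 OIR samples lie above 0 in both Müller-like clusters and all 3 controls lie at 0, while in cluster 9 the controls hold 109, 7 and 4 UMIs and the groups overlap.

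The Areg-positive cells of cluster 3 differed in other RNAs from the Areg-negative cells beside them. These genes were picked after their values were seen, as the 10 highest in the 48 positive against the 1120 negative cells of the OIR samples among genes with at least 20 UMIs in the positive cells and higher there in all 3 samples, and no test was made. The ranking pooled the cells of the 3 samples, and 32 of the 48 positive cells came from OIR replicate 1, 5 from replicate 2 and 11 from replicate 3. First in the pooled cells was Egln3, a prolyl hydroxylase of the hypoxia response, at 130, 44.9 and 39.3 CPM in positive and 7.45, 4.74 and 4.79 CPM in negative cells of OIR replicates 1, 2 and 3. Nupr1, a nuclear stress protein, stood at 1010, 959 and 676 CPM against 217, 85.0 and 72.3 CPM. Ero1l, an oxidase of protein folding that is known to respond to hypoxia, stood at 284, 255 and 110 CPM against 51.5, 31.2 and 41.4 CPM. Adm, the vasoactive peptide adrenomedullin, stood at 469, 839 and 47.2 CPM against 144, 65.2 and 12.2 CPM. Over the 3 samples, the positive cells held 66 UMIs of Egln3, 602 of Nupr1, 158 of Ero1l and 272 of Adm. The values of replicates 2 and 3 rest on few cells. In order, the list was Egln3, Anxa2, Nupr1, Cdh13, Egr2, Ero1l, Cxcl12, Akap12, Adm and Eif4ebp1. Anxa2 stood at 223, 240 and 70.8 CPM in positive against 29.8, 11.5 and 23.1 CPM in negative cells. Egr2 stood at 78.2, 59.9 and 78.7 against 7.14, 8.69 and 10.5 CPM. The genes given with values do not follow the order of the list, and a theme shared by the list was not tested. Positive cells were deeper, with a median of 13504 UMIs against 10451.5, and the part of depth in these differences was not tested.

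Egfr, the receptor for Areg, was measured in Müller-like cells with and without an Areg UMI, with no test made. In OIR replicate 1 it stood at 30.5 CPM in Areg-positive and 30.4 CPM in Areg-negative Müller-like cells, in replicate 2 at 61.2 and 59.99 CPM and in replicate 3 at 35.7 and 37.4 CPM. The values of positive cells rest on 13, 4 and 3 cells with an Egfr UMI. The share of cells with one was 38.2% of Areg-positive and 21.2% of Areg-negative cells in replicate 1, 40.0% and 23.8% in replicate 2, and in replicate 3 it was 3 of 15 and 76 of 566 cells. The positive cells were deeper in all 3 samples, with medians of 8555 to 12711.5 against 2305.5 to 8475 UMIs. The marker sum of every list, that of Müller glia included (25299 against 27325 CPM), was lower in the 59 positive cells than in the 1973 negative ones, as for rods (2323 against 3490 CPM), cone bipolar cells (137 against 200 CPM) and microglia (27.9 against 32.6 CPM).

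Areg was also found in cone bipolar-like cells, almost only in cluster 9, which Adarb2, Cntn5 and Gabrr3 lead. Of the marker lists, that of rod bipolar cells scored highest in this cluster, and 0 cone bipolar markers were among its 10 leading genes. This cluster held 120 of the 121 control UMIs and 27 of the 28 OIR UMIs of cone bipolar-like cells. Its control samples stood at 53.8, 28.3 and 23.01 CPM, from 109, 7 and 4 UMIs, and its OIR samples at 9.97, 39.1 and 0 CPM, from 15, 12 and 0 UMIs. The mean was 35.0 ± 16.5 CPM in the control and 16.4 ± 20.3 CPM in the OIR group (SD, n = 3), so that the CPM of the groups overlapped and differed by about their spread. Without the highest cell of each sample, the controls stood at 44.5, 20.4 and 11.7 CPM and the OIR samples at 6.69, 20.2 and 0 CPM, which still overlapped. An Areg UMI was in 12.7%, 15.6% and 9.38% of control and 3.63%, 8.16% and 0% of OIR cells of cluster 9. Only 32 cells of the cluster came from each of control replicates 2 and 3. Over the whole retina the 2 sources together left Areg at 2.67, 1.82 and 2.21 CPM in the OIR and 3.16, 0.406 and 0.341 CPM in the control samples.

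Amacrine-like cells had 3 Areg UMIs and rod bipolar-like cells 1, and cone-like, microglia-like, RPE-like, endothelial-like, mural-like and astrocyte-like cells had 0 in all 6 samples. In the Müller-like sums, endothelial markers were at 1062 to 1311 CPM in the OIR and 917 to 1041 CPM in the control samples (9 genes, 5 with the higher mean in OIR, Kdr differing most), and RPE markers at 556 to 669 and 446 to 473 CPM (7 genes, 5 higher, mainly Rdh10). Astrocyte markers were at 425 to 567 against 788 to 1045 CPM (6 genes, 4 higher, with Aqp4, also a marker of Müller glia, lower) and ganglion cell markers at 22.1 to 34.1 against 37.0 to 45.7 CPM (6 genes, 0 higher). None of these genes was at 0. Areg was at 0 in the cells of the first 3 types, but these cells were few. OIR replicates 1, 2 and 3 held 25, 2 and 2 endothelial-like, 19, 43 and 50 RPE-like and 17, 11 and 3 astrocyte-like cells. The floor of 3 counts in pooled OIR RPE-like cells was 9.81 CPM, against 10.04 CPM of Areg in pooled OIR Müller-like cells. The part of RNA from these types in the Areg level of Müller-like cells was not tested. The other 11 marker lists overlapped between the groups.

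Of the remaining ligands of Egfr among the members, Ereg, epiregulin, the neighbour of Areg, had 1 UMI in the whole series, in a Müller-like cell of OIR replicate 3. Hbegf, heparin-binding EGF, was spread over several types. Müller-like cells held it at 14.3, 10.3 and 5.84 CPM in the OIR and 15.8, 12.6 and 7.29 CPM in the control samples, with a log2 difference of -0.30 ± 0.35 (SE). Amacrine-like cells stood higher, at 96.7, 93.8 and 21.2 CPM in the OIR and 41.1, 19.996 and 50.5 CPM in the control samples, with only 4 to 27 and 3 to 51 UMIs, and overlapped. Vessel cells also held it, with 82 UMIs in endothelial-like and 39 in mural-like cells, too few cells for a comparison in OIR replicates 2 and 3, which had 2 endothelial-like cells each.

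Tgfa, transforming growth factor alpha, had 331 UMIs, of which rod bipolar-like cells held 26.9%, Müller-like cells 23.9% and microglia-like cells 15.1%. Endothelial-like cells held 34 of these UMIs, or 10.3%, in 0.503% of the cells, where microglia-like cells were 0.633%. Endothelial-like cells were too few for a comparison in OIR replicates 2 and 3. Müller-like cells held 53, 6 and 7 UMIs in the OIR and 10, 3 and 0 in the control samples, or 6.83, 1.88 and 2.27 against 1.78, 1.26 and 0 CPM. All OIR values lay above all control values, but OIR replicates 2 and 3 were near control replicate 1, and most of the mean of 3.66 ± 2.75 CPM (SD, n = 3) came from OIR replicate 1. Rod bipolar-like cells (2.71 to 7.98 against 1.02 to 6.22 CPM) and microglia-like cells (12.1 to 50.0 against 10.5 to 49.0 CPM) overlapped between the groups.

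Among the ligands that were not members, Btc, betacellulin, was tested in Müller-like cells because it passed the filter on low counts. It stood at 14.8, 17.8 and 14.6 CPM in the OIR and 10.1, 10.1 and 11.5 CPM in the control samples, and the difference, 0.52 ± 0.20 on the log2 scale, did not pass the test (edgeR quasi-likelihood, adjusted p = 0.249). Nrg2 stood at 4.81 ± 1.55 and 4.13 ± 0.731 CPM (SD, n = 3) in the same cells, with a log2 difference of 0.08 ± 0.34 (adjusted p = 0.973 by edgeR).

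Nrg1, neuregulin 1, was highest in control rod bipolar-like cells and lower there in every OIR sample. The control samples held 295, 58 and 57 Nrg1 UMIs in 818, 164 and 158 rod bipolar-like cells, or 54.1, 45.1 and 58.0 CPM. The OIR samples held 60, 22 and 19 UMIs in 574, 184 and 157 cells, or 12.6, 12.7 and 12.9 CPM, so that the 3 OIR samples lay together and far below the lowest control. The mean was 52.4 ± 6.59 CPM in the control and 12.7 ± 0.154 CPM in the OIR group (SD, n = 3), a fitted log2 difference of -2.07 ± 0.20 (SE) or 4.21-fold. It lay between -2.18 and -1.92 under every alternative tried, a range that describes the processing and is no test of a gene chosen on this contrast. Control replicate 1, with Y-linked RNA, stood between the other controls, and group and sex remain partly confounded.

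The share of rod bipolar-like cells with an Nrg1 UMI was 28.5%, 27.4% and 29.1% in the control and 9.41%, 10.3% and 10.8% in the OIR samples. Depth went the other way, with a median of 8443.5 to 10280 UMIs a cell in the OIR and 6421.5 to 8214 in the control samples. Thinned to 1000 UMIs, the mean share was 5.23% ± 0.695 in the control and 1.19% ± 0.0704 in the OIR group (SD, n = 3). Rod-like cells, as a type without the gene, had an Nrg1 UMI in 1 of 12468 control and 2 of 12353 OIR cells.

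**Figure D3:**
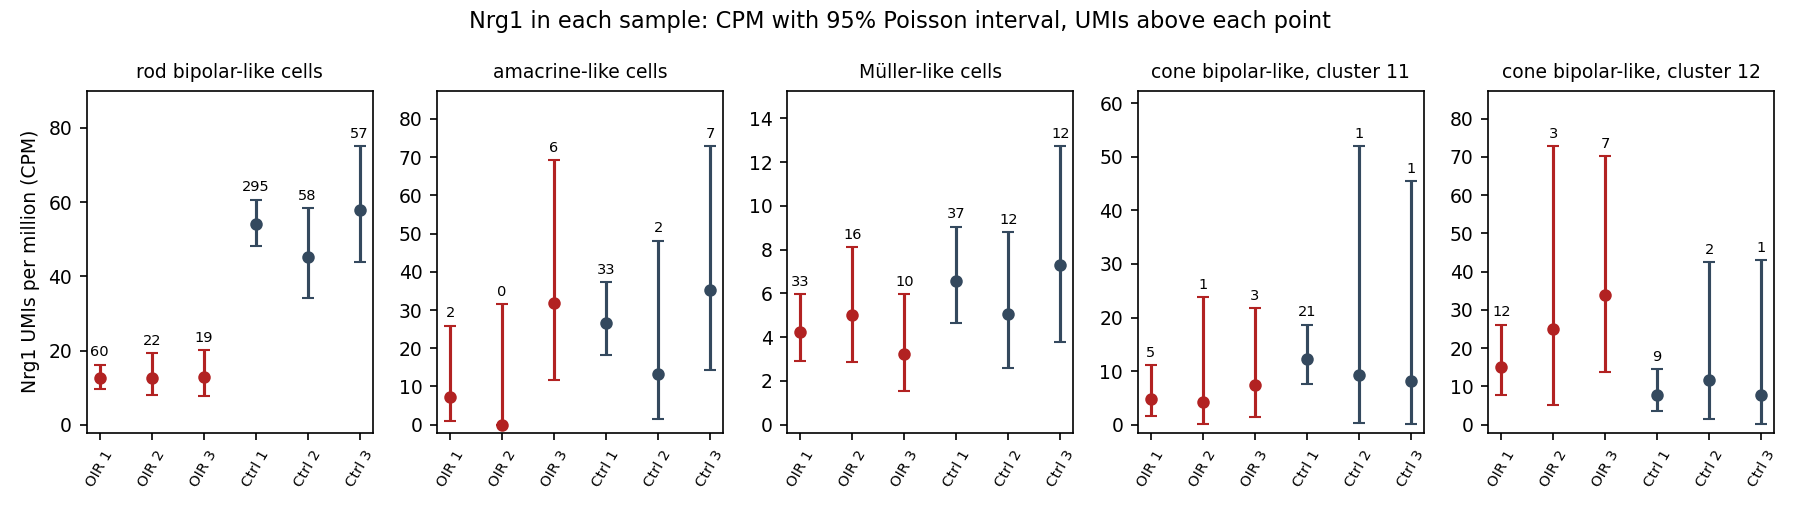
Nrg1 CPM (y axis) in each sample (x axis) in rod bipolar-like, amacrine-like and Müller-like cells and in cone bipolar-like clusters 11 and 12, drawn like the plot of Areg by sample, each panel with its own scale. In rod bipolar-like cells the OIR samples lie between 12.6 and 12.9 CPM and the controls between 45.1 and 58.0, while in cluster 12 the OIR samples lie above the controls on 1 to 12 UMIs a sample.

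The order of types by mean Nrg1 stood apart in the control group and was not settled in the OIR group. In control retinas rod bipolar-like cells were followed by amacrine-like cells at 25.1 ± 11.1 CPM, Müller-like cells at 6.30 ± 1.147 CPM and cone bipolar-like cells at 2.72 ± 0.796 CPM (SD, n = 3), each apart from the next by more than its spread. In OIR retinas amacrine-like cells stood at 12.99 ± 16.7 CPM, level with rod bipolar-like cells, and Müller-like cells at 4.17 ± 0.881 CPM were within the spread of cone bipolar-like cells at 3.47 ± 1.43 CPM. The amacrine values rest on 2, 0 and 6 OIR and 33, 2 and 7 control UMIs and overlapped. In Müller-like cells the OIR samples stood at 4.25, 5.00 and 3.25 CPM and the controls at 6.57, 5.04 and 7.29 CPM, with OIR replicate 2 just under control replicate 2 and a log2 difference of -0.64 ± 0.31 (SE).

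Nrg1 was sparse in cone bipolar-like clusters. In cluster 12, led by Slit2, Zfhx4 and Scgn, Nrg1 stood at 15.0, 24.9 and 34.0 CPM in the OIR and 7.64, 11.7 and 7.72 CPM in the control samples, from 12, 3 and 7 against 9, 2 and 1 UMIs. In cluster 11, led by Cck, Reln and Vsx1, it stood at 4.75, 4.28 and 7.44 against 12.2, 9.33 and 8.15 CPM, from 5, 1 and 3 against 21, 1 and 1 UMIs. Counts this small have wide counting intervals, from 0.195 to 43.0 CPM for the single UMI of control replicate 3 in cluster 12.

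In rod bipolar-like sums the rod bipolar markers themselves overlapped between the groups as a sum, at 14742 to 17188 CPM in the OIR and 14185 to 18864 CPM in the control samples. Of these 7 genes, 4 had the higher mean in OIR. Gng13 differed most and was lower, at a mean of 4484 CPM in the OIR and 6699 CPM in the control group. Cone bipolar markers were higher in the OIR samples, 4695 to 5870 against 3545 to 3840 CPM (9 genes, 7 higher, mainly Isl1), as were astrocyte markers, 47.7 to 75.3 against 11.6 to 18.7 CPM (6 genes, 3 higher, mainly Aqp4, with Pax2 at 0). Aqp4 is also a marker of Müller glia. The sum of that list overlapped, at 301 to 405 against 142 to 351 CPM (8 genes, 8 higher, mainly Aqp4). The part of these markers in the Nrg1 difference was not tested. As in all summed values, fewer positive cells and less RNA per cell cannot be told apart where a cell holds few UMIs.

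Nrg3, the neuregulin of the nervous system, was in neurons, with 71.2% of its 396 UMIs in cone bipolar-like and 19.4% in amacrine-like cells. Within cone bipolar-like cells, cluster 8, led by Epha7, Nfia and Kcng4, was highest, at 25.1, 31.6 and 38.0 CPM in the OIR and 15.7, 40.7 and 30.3 CPM in the control samples. Cone bipolar-like cells as a whole stood at 17.4 ± 3.43 and 14.8 ± 7.38 CPM (SD, n = 3), a log2 difference of 0.31 ± 0.32 (SE). Amacrine-like cells stood at 43.0, 42.6 and 74.2 CPM in the OIR and 27.4, 26.7 and 40.4 CPM in the control samples, from 12, 5 and 14 against 34, 4 and 8 UMIs, with every OIR sample above every control. Among the 3895 genes tested in these cells, the groups did not overlap for 477.

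Of the receptors, Egfr was almost confined to Müller-like cells, which held 94.3% of its 1221 UMIs in 9.04% of the cells. The control samples stood at 68.9, 56.3 and 52.2 CPM and the OIR samples at 30.4, 60.02 and 37.3 CPM. OIR replicate 2 lay among the controls and the other OIR samples below them, so that the groups overlapped, with means of 42.6 ± 15.5 CPM in the OIR and 59.2 ± 8.71 CPM in the control group (SD, n = 3) and a log2 difference of -0.58 ± 0.22 (SE). The share of cells with an Egfr UMI was 21.8%, 24.1% and 13.6% in the OIR and 31.5%, 29.8% and 27.3% in the control samples, and 3.39% ± 1.10 against 5.18% ± 1.13 (SD, n = 3) when thinned. In rod-like cells 8 of 12353 OIR and 2 of 12468 control cells had a UMI.

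Erbb2, the partner receptor, had 82.0% of its 261 UMIs in Müller-like cells, at 8.89, 9.69 and 10.1 CPM in the OIR and 9.24, 5.89 and 10.3 CPM in the control samples, with a log2 difference of 0.10 ± 0.26 (SE). Endothelial-like, mural-like and astrocyte-like cells held 16, 7 and 8 Erbb2 UMIs. They stood at 19.4, 0 and 20.1 CPM in OIR replicate 1 and at 9.77, 11.7 and 3.29 CPM in control replicate 1. The share in Müller-like cells therefore does not show a higher level than in these types, whose cells were few. Erbb3, a neuregulin receptor, had only 53 UMIs, 34 of them in Müller-like cells, at 1.25 to 2.06 CPM in the OIR and 0.841 to 1.21 CPM in the control samples. Cone-like cells held 8 Erbb3 UMIs in the OIR and 0 in the control samples.

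Erbb4, the other neuregulin receptor, was in a different cell. Cone bipolar-like cells held 93.9% of its 393 UMIs, and cluster 12, with 392 cells, held 107 in the OIR and 212 in the control samples. Its level there was 84.8, 183 and 82.7 CPM in the OIR and 138, 211 and 108 CPM in the control samples, and the groups overlapped. An Erbb4 UMI was in 31.0%, 37.0% and 14.3% of the OIR and 55.1%, 57.1% and 55.6% of the control cells of cluster 12. Thinned to 1000 UMIs these shares were 8.51%, 13.9% and 4.93% against 13.5%, 16.3% and 10.2%, which overlap. Over all cone bipolar-like cells the log2 difference was -0.77 ± 0.29 (SE). Rod bipolar-like cells, the main source of Nrg1, had 0 Erbb4 and 0 Erbb2 UMIs and 6 of Erbb3.

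By the filter on low counts, 5 of the 10 members could be fitted in Müller-like cells, 1 in rod bipolar-like and 3 in cone bipolar-like cells, and 0 in the other 5 types. Areg entered the fit through the OIR group alone, since control Müller-like cells had 0 Areg UMIs. The call limit was an adjusted p below 0.05 with a log2 difference of 0.25 or more either way. It was passed by 2.54% of the 11533 genes tested in Müller-like cells and 2.46% of 9332 in rod bipolar-like cells. In cone bipolar-like cells the share was 0.868%. Since this contrast chose the members, their own calls are not given. Groups that do not overlap were common among all genes tested. This was so for 2365 of 11533 genes in Müller-like and 1799 of 9332 in rod bipolar-like cells.

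By Pearson's r of log2(CPM + 1) over the 48 sums of 8 types and 6 samples, the genes most like Areg among those tested in Müller-like cells were Matn4 (0.764), Cadps2 (0.704), Pcdh8 (0.691), Fezf2 (0.687) and Wfdc1 (0.687). All 5 were, like Areg, highest in Müller-like and cone bipolar-like cells. Matn4, an extracellular matrix protein, was the one of the 5 whose groups did not overlap in Müller-like cells, at 12.4, 14.4 and 19.2 CPM in OIR and 2.13, 5.04 and 1.82 CPM in control Müller-like cells. The genes most like Nrg1 were Pcdhb3 (0.886), Sdk2 (0.880), Dclk2 (0.876), Rap1gap (0.869) and Kcnh5 (0.866). Sdk2, Dclk2, Rap1gap and Kcnh5 were highest in rod bipolar-like cells, and Pcdhb3 stood at like levels in rod bipolar-like, cone bipolar-like and amacrine-like cells. In rod bipolar-like cells Kcnh5 was higher in every OIR sample, at 98.7, 121 and 86.2 against 67.2, 77.0 and 52.9 CPM. Pcdhb3 was lower there, at 5.04, 5.77 and 3.39 against 6.97, 10.1 and 7.12 CPM, and Sdk2, Dclk2 and Rap1gap overlapped. The likeness to Nrg1 therefore does not show a like difference between the groups. The 48 sums share samples and cell types, so these values are descriptions.

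The rest of the pathway was read from 5 lists of 65 genes: other ligands, shedding proteases and their regulators, signalling proteins, feedback inhibitors and response genes. The lists were written by hand with earlier results of these data known. Their counts, medians and adjusted p therefore describe the listed genes and do not test the pathway. In Müller-like cells 57 of them were tested and 5 were called, 3 higher and 2 lower in OIR, where 2.54% of all genes were called. The 5 are 1 signalling gene, 2 feedback inhibitors and 2 response genes. The median log2 fold change of the 57 pathway genes tested was 0.09, against -0.01 over all genes tested.

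The genes of the feedback inhibitor list that changed were both Lrig genes, which code for membrane proteins. Of these, Lrig1 is known to restrain receptors of this family. Lrig1 stood at 8.89, 8.44 and 7.79 CPM in the OIR and 27.7, 20.2 and 16.4 CPM in the control samples and fell by 1.45 ± 0.23 on the log2 scale (adjusted p = 0.0129 by edgeR). Lrig2 stood at 20.2, 23.1 and 20.1 against 38.6, 30.7 and 45.0 CPM and fell by 0.91 ± 0.18 (adjusted p = 0.0251 by edgeR). Lrig3, named after its value was seen, had a log2 difference of -1.23 ± 0.30 and did not pass (adjusted p = 0.0579 by edgeR). All 15 genes of the list were tested, and their median was -0.16.

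Of 12 response genes tested, 2 rose and 0 fell, and the median of the list was 0.77. Phlda1, an early gene of growth factor signals, stood at 37.8, 21.6 and 37.7 CPM in the OIR and 4.98, 5.04 and 10.3 CPM in the control samples, a log2 fold change of 2.33 ± 0.33 (adjusted p = 0.00833 by edgeR). Hmga2, a chromatin protein of growing cells, stood at 7.47, 5.31 and 6.82 against 0.888, 1.68 and 1.21 CPM, a change of 2.42 ± 0.41 (adjusted p = 0.0149 by edgeR). Of 21 signalling genes, Nras, a Ras GTPase, rose by 0.66 ± 0.14 on the log2 scale, from 51.7, 59.3 and 67.4 CPM to 90.9, 104 and 97.7 CPM (adjusted p = 0.0407 by edgeR). The OIR and control samples did not overlap for any of the 5 genes, which also held for 2365 of the 11533 genes tested. Phlda1 was called under all 14 alternatives, Lrig1 under 12, Hmga2 under 10, Lrig2 under 9 and Nras under 6.

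**Figure D4:**
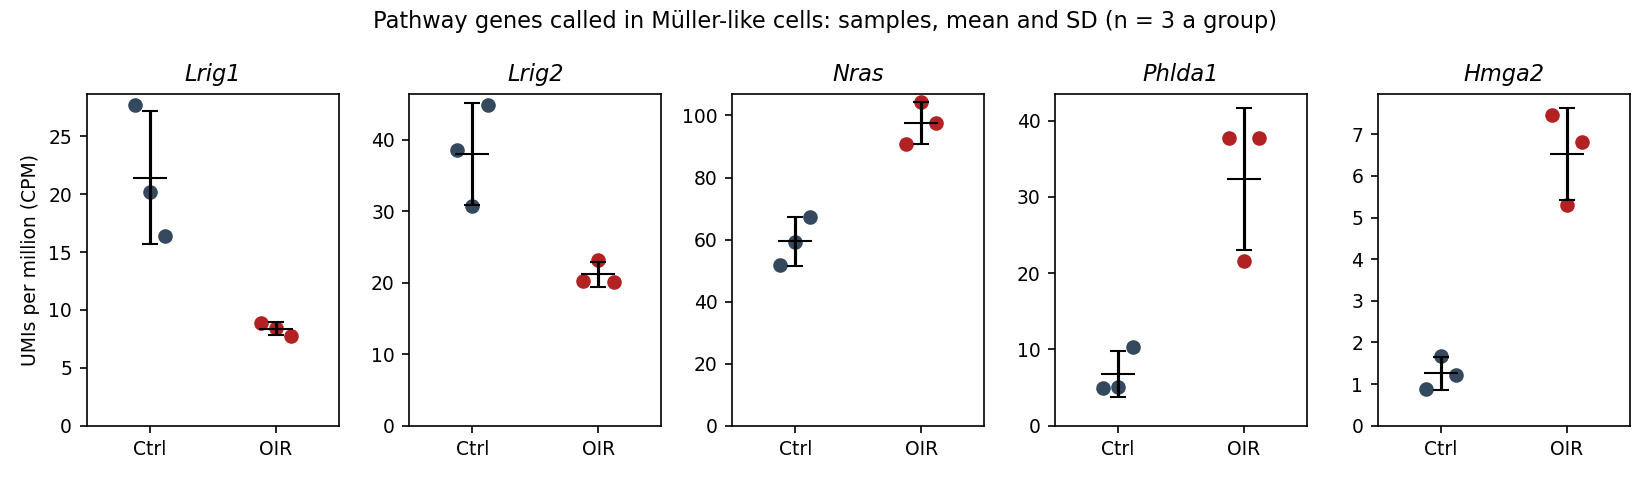
CPM (y axis, from 0) of the 5 pathway genes called in Müller-like cells, for control and OIR samples (x axis). Points are samples, the horizontal mark is the mean and the bar the SD (n = 3 a group). Lrig1 and Lrig2 lie lower in all OIR samples, and Nras, Phlda1 and Hmga2 higher.

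Of the other lists in Müller-like cells, edgeR called 0 of 2 other ligands (1 at an unadjusted p under 0.05, and 0 called by DESeq2) and 0 of 7 shedding genes (3 at an unadjusted p under 0.05, and 0 called by DESeq2). The shedding genes with the lowest p were Rhbdf2, a partner of the protease Adam17, at 0.88 ± 0.31 on the log2 scale, and Bace1, the beta-secretase, at -0.37 ± 0.16.

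In rod bipolar-like cells edgeR called 0 of 34 pathway genes (5 at an unadjusted p under 0.05, and 1 called by DESeq2), with a median log2 difference of -0.12 against -0.00 over all genes. Etv5, a transcription factor downstream of MAP kinase, stood at 5.88, 4.04 and 1.36 CPM in the OIR and 6.79, 27.2 and 23.4 CPM in the control samples, a log2 difference of -1.91 ± 0.53 (adjusted p = 0.0816 by edgeR). The feedback inhibitors Socs5 and Dusp5 differed by -0.86 ± 0.24 and -0.74 ± 0.26 and the kinase Map2k1 by 0.54 ± 0.15, with adjusted p of 0.0779, 0.187 and 0.0844 by edgeR. The ubiquitin ligase Cbl (-0.43 ± 0.20), the early gene Ier3 (0.26 ± 0.37) and the shedding genes Bace1 (-0.21 ± 0.14) and Adam9 (-0.11 ± 0.16) also did not pass.

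**Figure D5:**
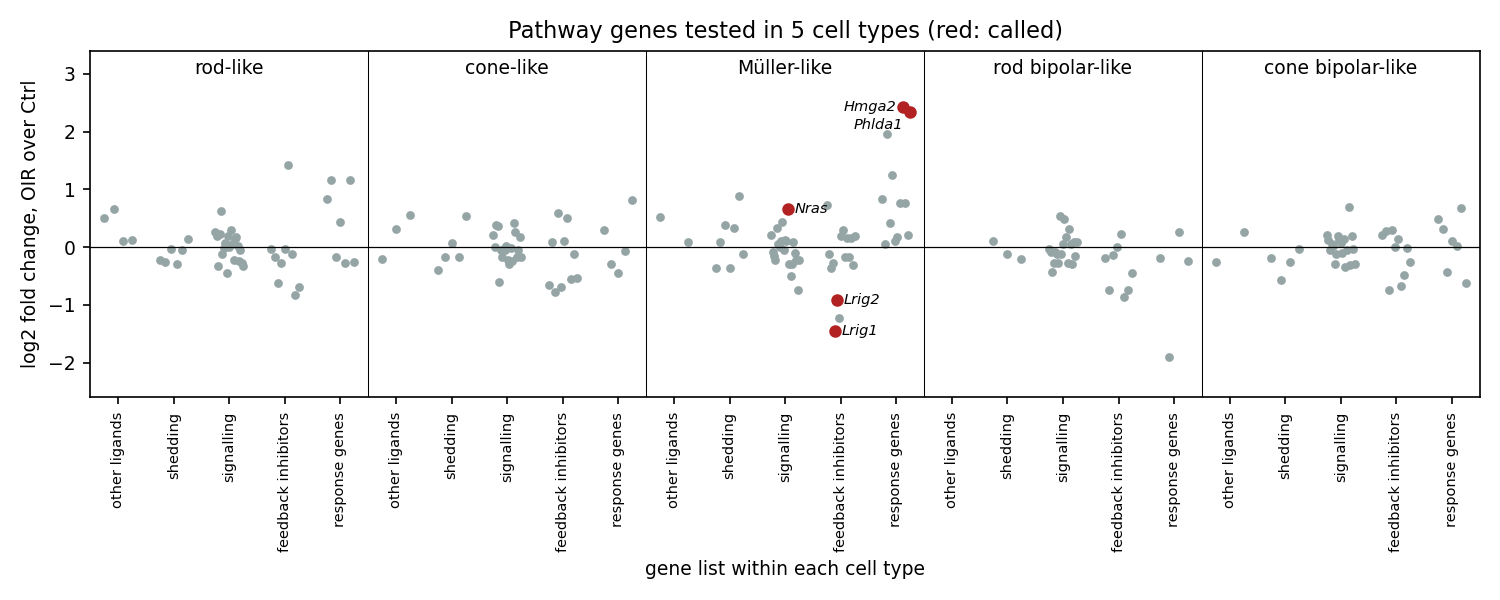
Log2 fold change, OIR over control (y axis), of each tested gene of the 5 pathway lists (x axis) in 5 cell types; every point is a gene and red points passed the call limit. The 5 red points are all in Müller-like cells, between -1.45 and 2.42.

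Genes known to respond to tissue dissociation were counted in the same cells. In Müller-like cells edgeR called 0 of 11 (1 at an unadjusted p under 0.05, and 0 called by DESeq2), and their summed level overlapped, at 6037 to 10574 CPM in the OIR and 8035 to 11325 CPM in the control samples. In rod bipolar-like cells 0 rose and 2 of 8 fell, and DESeq2 called 2 as well. These were Fos, by 2.18 ± 0.26, and Nr4a1, by 3.16 ± 0.43 on the log2 scale (adjusted p = 0.000396 and 0.00124 by edgeR), named after their values were seen. Both are also early genes of neuronal activity. The summed level overlapped, at 417 to 501 against 442 to 681 CPM, and the part of these genes in the Nrg1 difference was not tested.

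In rod-like cells, where 2.64% of genes were called, edgeR called 0 of 47 pathway genes (9 at an unadjusted p under 0.05, and 1 called by DESeq2). The response gene Klf10 stood at 23.1 ± 0.948 CPM in the OIR and 9.54 ± 4.26 CPM in the control group (SD, n = 3), a log2 difference of 1.17 ± 0.26 (adjusted p = 0.0524 by edgeR), and Spred1 at 7.81 ± 1.48 and 12.505 ± 2.78 CPM, a difference of -0.82 ± 0.23 (adjusted p = 0.102 by edgeR). With the replicate number as a block 2 genes were called, Klf10 and Spred1. Equal replicate numbers correlated in these sums, but OIR replicate 3 with control replicate 2 did as well (0.275). Ccnd1 (0.83 ± 0.25), Gab1 (0.63 ± 0.22), Lrig1 (-0.62 ± 0.21), Egf (0.66 ± 0.36), Btc (0.50 ± 0.23), Cbl (-0.33 ± 0.12), Bace1 (-0.29 ± 0.11) and Adam17 (-0.26 ± 0.15) did not pass. Without control replicate 1, 5 genes were called. In that setting the remaining controls held Xist RNA and every OIR sample Y-linked RNA, so group and sex cannot be told apart.

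In cone-like cells 1.29% of all genes were called, and edgeR called 0 of 43 pathway genes (8 at an unadjusted p under 0.05, and 0 called by DESeq2). The differences with the lowest p of each list were Nrg2 (0.55 ± 0.22) and Egf (0.31 ± 0.40), Rhbdf2 (0.54 ± 0.29) and Adam10 (-0.39 ± 0.28), Pik3r1 (0.42 ± 0.19) and Cbl (0.38 ± 0.21), Socs5 (-0.55 ± 0.18) and Dusp6 (-0.77 ± 0.29), and Fosb (-0.45 ± 0.19) and Klf10 (0.81 ± 0.37). In cone bipolar-like cells edgeR called 0 of 42 (5 at an unadjusted p under 0.05, and 0 called by DESeq2). There the same places were taken by Nrg2 (0.27 ± 0.24) and Btc (-0.27 ± 0.33), Adam9 (-0.25 ± 0.16) and Adam17 (-0.57 ± 0.36), Plcg1 (0.69 ± 0.26) and Pik3ca (-0.34 ± 0.15), Socs5 (-0.67 ± 0.20) and Dusp6 (-0.74 ± 0.30), and Klf10 (0.68 ± 0.24) and Ccnd1 (0.49 ± 0.34).

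The small types gave few tests. In amacrine-like cells 0.0% of 3895 genes were called (238 at an unadjusted p under 0.05, and 2 called by DESeq2), with 0 of 19 pathway genes (2 at an unadjusted p under 0.05, and 0 called by DESeq2). The lowest p were those of Egr1 (1.63 ± 0.41) and Ier3 (1.02 ± 0.37), then Map2k1 (-0.57 ± 0.33), Grb2 (-0.70 ± 0.41), Bace1 (0.45 ± 0.44) and Spry2 (-0.35 ± 0.61). In microglia-like cells 0.324% of genes were called and edgeR called 0 of 22 pathway genes (2 at an unadjusted p under 0.05, and 0 called by DESeq2), among them Errfi1 (-0.80 ± 0.30), Dusp6 (-0.19 ± 0.25), Fosb (0.78 ± 0.34), Ccnd1 (0.77 ± 0.44), Nras (0.55 ± 0.35), Pik3ca (-0.55 ± 0.34), Adam17 (-0.16 ± 0.38) and Adam10 (0.00 ± 0.40). In RPE-like cells 0.0567% were called and edgeR called 0 of 7 (1 at an unadjusted p under 0.05, and 0 called by DESeq2), namely Spry2 (-1.05 ± 0.49), Timp3 (-0.51 ± 0.31), Map2k2 (-0.54 ± 0.44), Pik3r1 (-0.32 ± 0.45), Ier3 (0.21 ± 0.49) and Adam10 (-0.01 ± 0.40), with 1 more not named.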

How the data were processed

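Retinas of 3 OIR and 3 control samples had been measured by droplet single-cell RNA sequencing. The authors deposited whole-number UMI counts per gene and barcode, aligned to build mm10 per the labels, with Cell Ranger. The 6 matrices held 47631 barcodes and 165647166 UMIs. The members and the gene lists were chosen with earlier results of these data known.

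Cells with 500 to 5000 genes and under 20% mitochondrial UMIs were kept. In Seurat 5.3.0 the OIR and control cells were integrated by canonical correlation analysis and then clustered (2000 variable genes, 15 components, resolution 0.5). Clusters were named by fixed markers. Levels and tests used the UMI counts without integration. Doublets were not removed, and Scrublet in scanpy 1.11.5 called 165 barcodes of OIR replicate 1, 324 of control replicate 1 and 0 of each remaining sample. UMI counts were summed per sample and type where every sample had at least 10 cells and tested with edgeR 4.0.16 (TMM, filterByExpr, quasi-likelihood, Benjamini-Hochberg adjustment over all genes of the type). Genes were called at an adjusted p below 0.05 with a log2 difference of 0.25 or more either way. Standard errors of log2 differences are approximate, worked back from the log2 difference and the statistic of the edgeR test. For the members they describe the fit and are not read as a test. On simulated counts the edgeR test recovered 63.5% of genes changed 2-fold in Müller-like sums (11533 genes) and 71% in rod bipolar-like sums (9332 genes), and 11.8% and 8.97% of its calls there were false, above the nominal 5%. The samples are separate pools of mice, and p-values measure the spread between pools. Intervals and floors, set at 3 counts, cover counting error only.

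Pathway genes are named where called, at most 4 per direction and list, and otherwise the 2 with the lowest p of a list. The genes most like Areg and Nrg1 are the 5 with the highest correlation. The deviations of equally numbered samples correlated at 0.51, 0.27 and 0.39 in rod-like and 0.35, 0.14 and 0.20 in cone bipolar-like sums. These were all over 0.1, which did not hold for every pair of the other types. In rod-like sums, however, OIR replicate 3 correlated with control replicate 2 at 0.275, and OIR replicate 2 with control replicate 3 at 0.214. Whether equal numbers mark paired samples was therefore not established, and the replicate block is an alternative only. Alternatives were DESeq2 1.42.0, no filter, the replicate block, a term for sex, replicates 2 and 3 alone, each sample left out, a mitochondrial limit of 10%, types by marker score, and removal of high Scrublet scores. Positions are from GRCm38.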

Additional observations from a re-analysis of the deposited data

Results flagged for a closer look

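The order of the Nrg1 values of OIR and control samples was opposite in 2 kinds of bipolar cell. In cone bipolar-like cluster 12 every OIR sample lay above every control, with a ratio of the group means of 2.73, OIR over control, while in rod bipolar-like cells every OIR sample lay below, with a ratio of 0.243. The ratio was 0.661 in Müller-like cells and 0.554 in cone bipolar-like cluster 11, where every OIR sample also lay below every control. Over all cone bipolar-like cells Nrg1 did not pass the filter on low counts, at 3.07 CPM in the pooled OIR and 3.35 CPM in the pooled control cells. The difference between the types was not tested, and the values of clusters 11 and 12 rest on 1 to 21 UMIs a sample. The counting interval of the single UMI of control replicate 3 in cluster 12 covers every OIR value there. Over all cone bipolar-like cells the groups did not overlap for 1805 of the 10258 genes tested, and this was not counted within the clusters.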

How the results depend on the processing

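The summed counts are small for most members, and 3 samples a group limit what can be called. Against 5 pathway genes called in Müller-like cells, DESeq2 called 8, no filter 11, and replicates 2 and 3 alone 3, and leaving out a sample gave 2 to 6 (2 without OIR replicate 1, OIR replicate 3 or control replicate 3). Against 0 in rod bipolar-like cells, DESeq2 called 1, no filter 5, the sex term 1, replicates 2 and 3 alone 8, and the mitochondrial limit of 10% 2, and leaving out a sample gave 0 to 5 (1 without OIR replicate 1, 5 without control replicate 1). Against 0 in rod-like cells, DESeq2 called 1, no filter 2, and replicates 2 and 3 alone 11, and leaving out a sample gave 0 to 5 (5 without control replicate 1). Against 0, replicates 2 and 3 alone gave 1 in cone-like and 2 in cone bipolar-like cells, and leaving out a sample gave 0 to 2 in each (2 without control replicate 1). In the other types no filter gave 1. With replicates 2 and 3 alone, and without control replicate 1, every control sample left held Xist RNA and every OIR sample Y-linked RNA. Group and sex are fully confounded in these settings, and their extra calls cannot be told apart from a difference in sex. The cause of these changes was not tested.

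With the replicate number as a block, 8 pathway genes were called in Müller-like and 3 in rod bipolar-like cells. The block gave 2 in rod-like, 1 in cone-like and 0 in cone bipolar-like cells. Whether equal numbers mark paired samples was not established.

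The log2 lower bound of the Areg fold, 5.01, was 3.90 with replicates 2 and 3 alone and 3.75 to 5.16 with a sample left out, lowest without control replicate 1, because fewer control UMIs raise the floor. The log2 difference of Nrg1 in rod bipolar-like cells, -2.07, was -1.92 at the mitochondrial limit of 10%.

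Of the named genes that were not called, some changed sign. With the sex term these were Egf (-0.0035) and Adam10 (0.29) in cone-like, Nrg2 (-0.11) in Müller-like, Ier3 (-0.10) in rod bipolar-like, Spry2 (0.64) in amacrine-like, Adam17 (0.25) in microglia-like, and Adam10 (0.71), Map2k2 (0.11) and Ier3 (-0.55) in RPE-like cells. With types by marker score they were Bace1 (-0.22) in amacrine-like, Adam10 (-0.15) in microglia-like, and Pik3r1 (0.10) and Ier3 (-0.094) in RPE-like cells. Replicates 2 and 3 alone turned Ier3 in rod bipolar-like (-0.095) and Dusp6 in microglia-like cells (0.045). Adam10 turned in microglia-like cells under the block (-0.070), the mitochondrial limit (-0.0052) and the Scrublet removal (-0.016), and in RPE-like cells under DESeq2 (0.14) and no filter (0.11). With a sample left out, values ran from -0.11 to 0.29 for Nrg2 in Müller-like, -0.56 to 0.74 for Ier3 in rod bipolar-like, -0.088 to 0.83 for Bace1 and -1.002 to 0.050 for Spry2 in amacrine-like, -0.59 to 0.26 for Adam17 and -0.42 to 0.40 for Adam10 in microglia-like, and -0.23 to 0.77 for Adam10 and -0.44 to 0.89 for Ier3 in RPE-like cells.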
